A study of Mus musculus with 8 samples.

Results

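S-phase microglia are described here as the cell barcodes chosen by their own counts, namely those that held unique molecular identifiers (UMIs, each standing for 1 captured RNA molecule) of at least 3 of 12 DNA replication genes and of fewer than 3 of 16 mitosis genes. The replication genes were Mcm2, Mcm3, Mcm4, Mcm5, Mcm6, Mcm7, Pcna, Rrm2, Tyms, Gins2, Clspn and Dtl. The mitosis genes were Mki67, Top2a, Birc5, Cdca8, Nusap1, Tpx2, Ccnb2, Cenpf, Cenpe, Ube2c, Hmmr, Aurkb, Kif11, Bub1, Cdc20 and Cdk1. A barcode was kept with at least 1000 UMIs, at least 500 genes and at most 10% mitochondrial UMIs, which left 14626 of 14883. Of the kept barcodes, 1258 were S-phase barcodes (8.60%) and 13368 were other barcodes.

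The libraries were made from YFP (+) cells of the lumbar spinal cord of C57BL/6 young adult mice, sorted by FACS after size selection and doublet exclusion. Control mice were Cx3cr1-yfp-creER/+, and A20 cKO mice were Cx3cr1-yfp-creER/+; Tnfaip3 fl/fl, where Tnfaip3 encodes A20, an inhibitor of NF-kB signalling. Mice of both genotypes carried the tamoxifen-inducible Cre in place of 1 Cx3cr1 allele and received tamoxifen, so deletion of Tnfaip3 was limited to cells that express Cx3cr1. Each genotype had a naive library and libraries from 1, 2 and 3 days after bilateral sciatic nerve transection, which injures the peripheral axons of lumbar motor and sensory neurons. Males and females were pooled, and each of the 8 groups was 1 library of pooled cords, so no comparison between groups had a replicate. Libraries held between 1648400 and 15817426 UMIs.

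A dividing cell copies its genome in S phase. The MCM2-7 helicase is loaded at origins in G1 and then unwinds the DNA, PCNA is the sliding clamp that holds the polymerases, and thymidylate synthase (Tyms) and ribonucleotide reductase (Rrm2) supply deoxynucleotides. E2F transcription factors, which the retinoblastoma proteins hold back, switch many of these genes on before and during S phase. Microglia, the macrophages that reside in brain and spinal cord, divide rarely in the healthy cord and divide locally in the lumbar cord after injury of a peripheral nerve.

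The promoters of the defining genes are shown because E2F sites are a known shared element of replication genes. The letters searched on both strands were TTTCGCGC, TTTGGCGC, TTTCCCGC and TTTGCCGC. The 160 bases before the RefSeq start of Mcm5 (GRCm38.p6, chr8:75109349-75109508, plus strand), Mcm6 (chr1:128359706-128359865, minus strand) and Tyms (chr5:30073626-30073785, minus strand) are printed 5′ to 3′, with matched letters in capitals.
Mcm5: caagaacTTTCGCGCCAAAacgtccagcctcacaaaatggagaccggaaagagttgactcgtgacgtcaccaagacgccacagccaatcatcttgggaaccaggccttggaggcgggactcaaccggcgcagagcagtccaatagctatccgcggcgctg
Mcm6: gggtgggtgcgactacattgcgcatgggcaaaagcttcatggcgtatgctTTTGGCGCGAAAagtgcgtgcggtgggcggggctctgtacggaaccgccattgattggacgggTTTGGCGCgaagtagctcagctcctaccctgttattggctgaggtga
Tyms: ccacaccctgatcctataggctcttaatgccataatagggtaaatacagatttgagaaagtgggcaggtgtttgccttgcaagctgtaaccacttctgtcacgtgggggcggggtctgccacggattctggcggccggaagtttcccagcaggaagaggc

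Mcm5 held 2 matches, which overlap on opposite strands, and Mcm6 held 3, of which 2 overlap. Tyms and Pcna held none of these letters in the window from 250 bases before to 50 after the start. Of the 12 replication genes, 10 had a promoter in the RefSeq table, all but Gins2 and Mcm4, and 6 of the 10 held at least 1 match. Counted by window, 6 of 11 windows of these genes held a match (54.5%), against 744 of 32851 windows in the whole table (2.26%). A match is a run of letters and was not tested as a binding site.

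Libraries differed in ways the groups did not set. Barcode sequences recurred between control day 3 and the 4 A20 cKO libraries at 13.2 per 1000000 possible barcode pairs (256 recurrences over 10 pairs of libraries). The rate was 1.67 among control naive, day 1 and day 2, and 1.77 between the sets. Of the S-phase barcodes, 32 had a sequence found in another library. Values are therefore also given within control day 3 and the A20 cKO libraries, within control day 1 and day 2, and without recurring barcodes.

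The S-phase barcodes carried the defining markers of microglia. Tmem119 was detected in 99.8% of them, Csf1r in 99.4%, Cx3cr1 in 98.4% and P2ry12 in 97.9%. Fcrls was detected in 86.2%, with a range of 29.5% to 99.2% over the libraries. Ccr2, which marks monocytes, had a UMI in 13 barcodes (1.03%), the border macrophage gene Mrc1 in 1, and Cd163 in 0 of 1258, which allows up to 0.238% of barcodes with a UMI and sets no limit on cells that express it. Of the S-phase barcodes, 1160 (92.2%) held a UMI of Mcm5, Mcm6, Pcna or Tyms.

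The values that chose the barcodes are given as a description. Exactly 3 replication genes were detected in 651 S-phase barcodes, 4 in 267 and 5 or more in 340, while 1545 other barcodes had exactly 2. No mitosis gene was detected in 636 of the S-phase barcodes, and 268 held 2, just under the threshold. By library, S-phase barcodes without a mitosis gene made up 85.9% in control day 1 and 16.3% in control day 2, where 178 held 2. Another 1603 barcodes passed the mitosis threshold and stand among the other barcodes, and 946 of these also held 3 or more replication genes. Control day 2 had 1071 of the mitotic barcodes, 29.9% of its kept barcodes, which sets what its S-phase barcodes are compared with.

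Among the 12 genes, Mcm3 was detected most often (57.2% of S-phase barcodes), followed by Pcna (48.7%), Mcm6 (46.5%), Tyms (38.3%) and Mcm7 (37.8%). Rrm2 (8.82%) and Clspn (11.4%), which encodes a mediator of the replication checkpoint, were detected least often. In other barcodes of the 7 libraries with 10 or more S-phase barcodes, Mcm5 was detected in 2.17% to 14.2% and Pcna in 11.1% to 21.3%. In control day 1, control day 2, control day 3, A20 cKO naive, and A20 cKO day 1, 2 and 3, S-phase barcodes held 78.1, 74, 98, 85.2, 104, 67.7 and 65.7 CPM of Mcm5 (counts per 1000000 UMIs of the summed barcodes). The level of Mcm5 in the other barcodes of those libraries was 15.1, 38.2, 13.5, 7.93, 11.4, 16.6 and 12.4 CPM, so control day 2 had the narrowest gap.

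**Figure D1:**
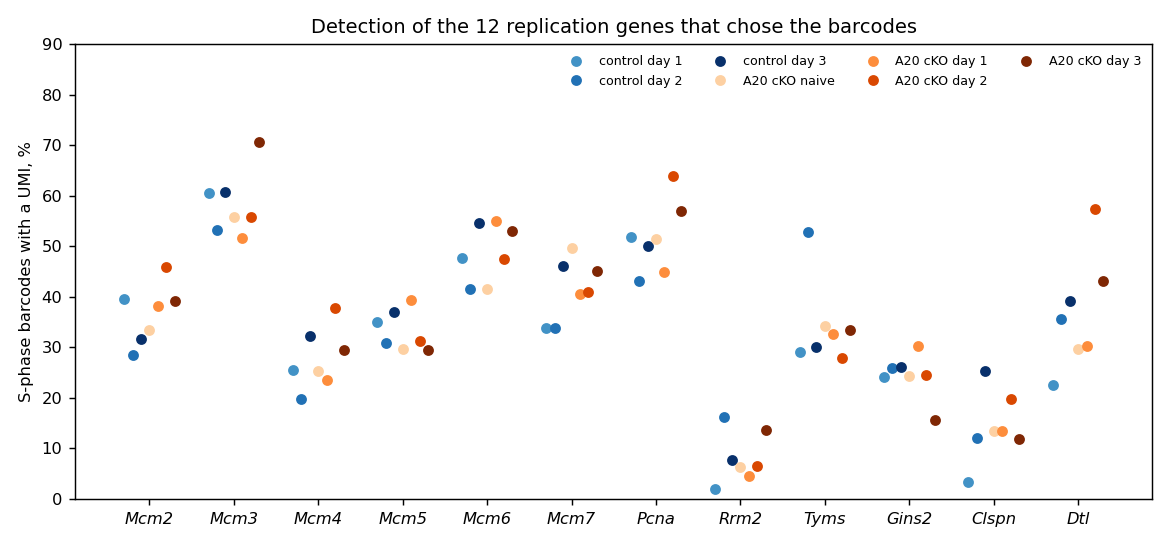
Percent of S-phase barcodes with at least 1 UMI (y axis) of each replication gene that chose them (x axis), 1 point per library with 10 or more such barcodes. Rrm2 lies at 1.90% in control day 1 and 16.3% in control day 2, while Mcm3 lies above 50% in every library plotted.

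S-phase barcodes were rare in the control naive library and more frequent in each injured library. They made up 4 of 568 kept barcodes in control naive (0.704%, exact Clopper-Pearson 95% interval 0.192 to 1.79). The share was 11.1% (10.1 to 12.2) in control day 1, 12.4% (11.3 to 13.5) in control day 2 and 6.14% (5.16 to 7.25) in control day 3. The A20 cKO naive library had 3.80% (3.14 to 4.56), A20 cKO day 1 had 10.05% (8.14 to 12.2), A20 cKO day 2 had 9.15% (7.07 to 11.6) and A20 cKO day 3 had 9.14% (6.88 to 11.8). These intervals cover counting error only and not the variation between animals.

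Against control naive, control day 1 was higher by 10.4 percentage points (Newcombe 95% interval 8.90 to 11.6), control day 2 by 11.7 (10.1 to 12.9) and control day 3 by 5.44 (3.99 to 6.62). Against A20 cKO naive, the differences were 6.25 points for A20 cKO day 1 (4.28 to 8.49), 5.35 for day 2 (3.25 to 7.86) and 5.34 for day 3 (3.09 to 8.09). All of these intervals lay above 0, also after thinning. The naive A20 cKO library had a share 3.09 points above that of the naive control library (1.83 to 3.96). These 2 libraries belong to different sets by barcode recurrence, as do control day 3 and control naive. The set cannot be told apart from genotype or day in these differences.

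The share depended on how many UMIs a barcode held. In control day 1 it was 2.70% among barcodes of 2000 to 3000 UMIs and 27.4% among those of 5000 or more, and in control day 2 it was 6.20% and 13.8%. S-phase barcodes had a median of 5262 UMIs in control day 1 against 3957 in other barcodes, and the S-phase median was also the higher one in each other library. After thinning barcodes to 2000 UMIs and leaving out shallower ones, the control libraries of days 1, 2 and 3 had shares of 2.14%, 6.64% and 3.19%, against 0% in control naive, and the A20 cKO libraries had 1.61% in naive and 4.70%, 4.63% and 3.72% on the 3 days. A second random draw gave 0.398% in control naive.

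Control day 2 therefore exceeded control day 1 by 1.25 points with all UMIs (interval -0.269 to 2.77) and by 4.50 points at equal depth (3.54 to 5.48). Both thresholds of the rule were applied anew to the thinned UMIs, so a mitotic barcode could fall under the mitosis threshold and count as S-phase. Before thinning, control day 2 had 1071 mitotic barcodes and control day 1 had 10. The part of such barcodes in the 4.50 points was not tested. A20 cKO day 3 exceeded control day 3 by 3.00 points with all UMIs (0.609 to 5.84) and by 0.523 at equal depth (-1.05 to 2.60), so that difference was not detectable at equal depth. The part of RNA content per cell in these shares was not tested.

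**Figure D2:**
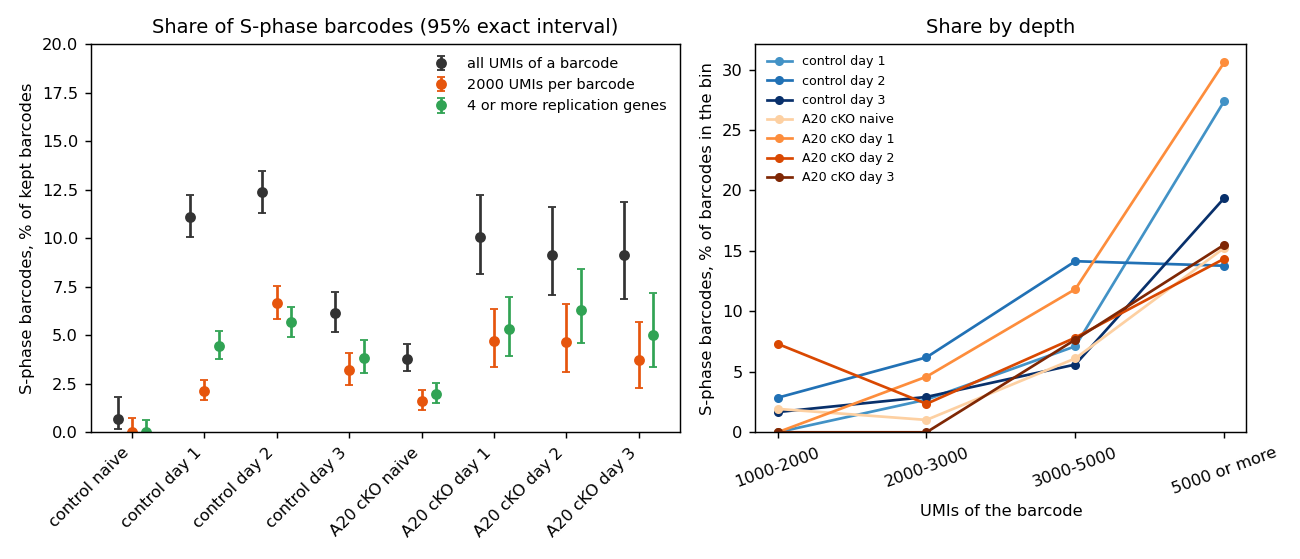
Left, percent of kept barcodes that were S-phase barcodes in each library, with all UMIs, with 2000 UMIs per barcode and with 4 or more replication genes required; bars are exact 95% intervals. Right, the share within bins of UMIs per barcode, which climbs from 2.70% to 27.4% between the 2000 to 3000 bin and the top bin in control day 1.

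S-phase barcodes were compared with the other kept barcodes of the same library on summed UMIs, in the 7 libraries with at least 10 of them, with library as a block. Genes of the rule were left out of the tests. Of 9822 genes, 403 were higher (4.1%) and 276 lower (2.81%) in S-phase barcodes at an adjusted p of at most 0.05 (edgeR quasi-likelihood test, Benjamini-Hochberg). Of these, 275 and 165 had the same direction in all 7 libraries, and 42 and 39 differed by more than 2-fold. Since the same UMIs chose the barcodes and measured them, membership was also set on a random part of each barcode's UMIs and the levels measured on the remainder, which called 279 genes higher and 204 lower, 195 and 122 of them among those above.

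The highest genes were mostly genes of DNA replication, its checkpoints, DNA repair or chromatin that the rule did not use. Wdhd1, which couples the helicase to DNA polymerase alpha, stood at 13.7, 41.4, 80.1, 57.5, 71.0, 73.9 and 72.6 CPM in S-phase barcodes of control day 1, 2 and 3 and A20 cKO naive, day 1, 2 and 3. In the other barcodes Wdhd1 stood at 5.32, 21.7, 19.8, 11.6, 17.5, 24.7 and 11.5 CPM. The S-phase level was the higher one in every library, with a log2 ratio of 1.70 ± 0.17 (SE, n = 7 libraries, edgeR adjusted p = 5.3e-08).

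Timeless, a component of the complex that protects the replication fork, stood at 23.6, 27.6, 65.4, 59.6, 33.0, 73.9 and 58.8 CPM against 6.24, 15.6, 14.7, 5.09, 17.5, 17.0 and 14.2 in the same order. Its log2 ratio was 1.82 ± 0.31 (SE, n = 7, edgeR adjusted p = 0.010), higher in all 7 libraries. The chromatin remodeller Hells had the highest log2 ratio, 2.04 ± 0.40 (adjusted p = 0.034 by edgeR), with 47.1 to 152 CPM in S-phase and 9.23 to 42.3 in other barcodes. The call for Hells was lost when any library but control day 2 was left out (adjusted p up to 0.107 by edgeR).

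The other highest genes included Dscc1 (clamp loading), Ung (removal of uracil from DNA), Chek1 and Wee1 (checkpoint kinases), Chaf1b (chromatin assembly), Pole2 (DNA polymerase epsilon), E2f1, Zgrf1 (a helicase), Exo1 (an exonuclease), Psmc3ip (recombination) and Cdca7 (a partner of Hells). Their log2 ratios ran from 1.28 for Cdca7 to 1.97 for Dscc1 and Ung. Of these, Pole2, Chaf1b, Exo1, Wee1, Psmc3ip and Zgrf1 stayed called whichever library was left out. Cdca7 lost its call without A20 cKO day 1 or day 3, Chek1 without A20 cKO day 1, A20 cKO day 3, control day 1 or control day 3, Dscc1 without A20 cKO day 1, A20 cKO day 2, control day 1 or control day 3, and Ung without any library but control day 2. E2f1 was not called without A20 cKO day 2, A20 cKO day 3 or control day 3.

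**Figure D3:**
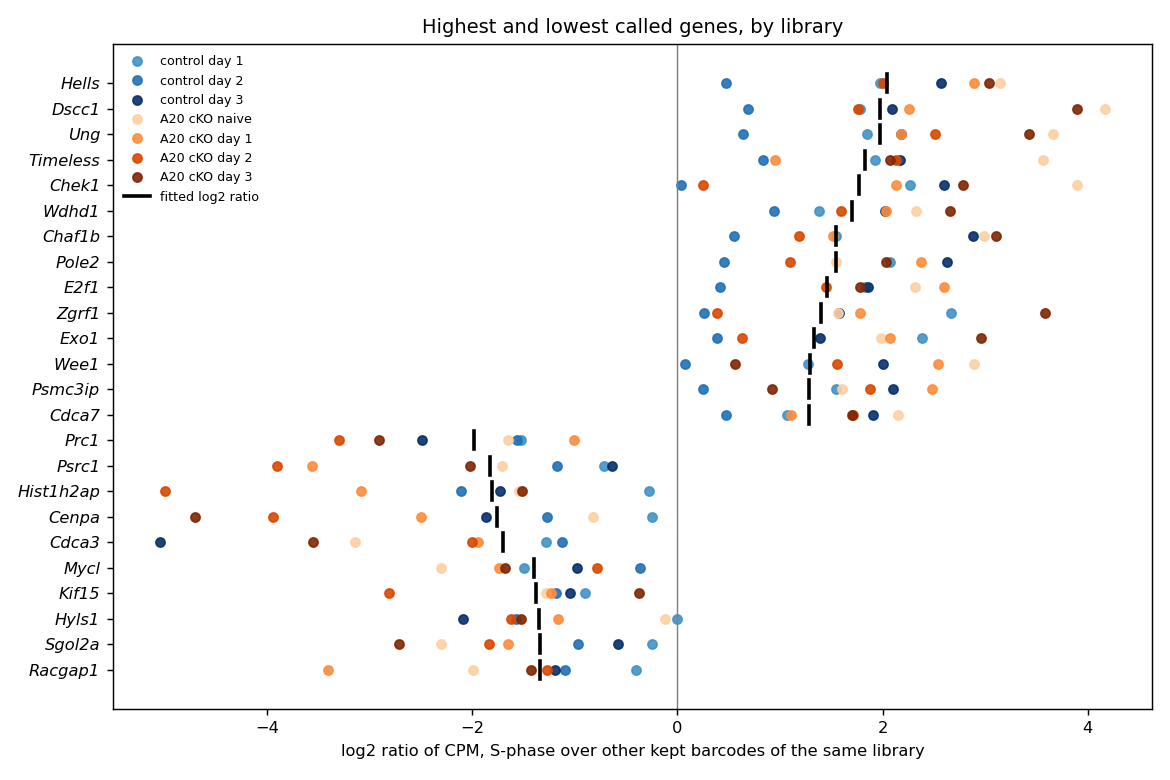
log2 ratio of CPM in S-phase over other kept barcodes (x axis) for 14 of the highest and 10 of the lowest called genes (y axis), 1 point per library and a black tick for the fitted value. Points for Wdhd1 and Timeless lie right of 0 in all 7 libraries, those for Prc1 and Mycl left of 0.

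Each step of replication had genes that rose. The lists were chosen with earlier results of these data known, so their counts are a description. Beside the 403 of 9822 genes called higher in all, 10 of 21 tested genes for origin licensing and firing rose and 0 fell, with a median log2 ratio of 0.64 against -0.01 for all genes. Cdc7, the kinase that fires origins, had 15.2 to 43.1 CPM in S-phase and 4.91 to 15.1 in other barcodes (log2 1.12 ± 0.21, edgeR adjusted p = 3.1e-04). Orc6, an origin recognition subunit, rose by 0.86 on the log2 scale, and Mcm10, which activates the helicase, by 1.13.

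Among fork enzymes, 17 of 25 were higher and 0 lower (median 0.72). Prim1, the primase that starts each DNA strand, stood at 24.1, 43.9, 60.5, 46.8, 55.8, 43.1 and 51.9 CPM against 9.15, 34.7, 18, 8.52, 19, 22.5 and 17.3 in the order above. Prim1 was higher in all 7 libraries (log2 1.25 ± 0.22, edgeR adjusted p = 0.0029). The flap nuclease Fen1 rose by 0.94, the polymerase delta subunit Pold1 by 1.07 and the clamp loader subunit Rfc2 by 0.71. DNA ligase Lig1 had a log2 ratio of 1.54 that did not pass (adjusted p = 0.069 by edgeR).

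Deoxynucleotide supply had 4 of 10 genes higher and 0 lower (median 0.44). Dut, which removes dUTP, had a log2 ratio of 1.13 that did not pass (edgeR adjusted p = 0.074), and Tk1, thymidine kinase, one of 0.22 (adjusted p = 0.52). Chromatin assembly and methylation copying had 8 of 14 higher and 0 lower (median 0.98). Among them Dnmt1, the maintenance DNA methyltransferase, rose by 1.26 (edgeR adjusted p = 0.013; 0.058 without A20 cKO day 1). Hat1, a histone acetyltransferase, rose by 0.82.

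Replication checkpoint and repair had 10 of 18 genes higher and 0 lower (median 0.86). Brca2, which protects stalled forks and serves recombination, stood at 17.7, 26.6, 70.3, 46.8, 68.5, 40.0 and 65.7 CPM in S-phase barcodes. In the other barcodes Brca2 stood at 6.41, 20.4, 23.1, 14, 21.3, 24.4 and 20.9 CPM. It was higher in all 7 libraries (log2 1.25 ± 0.16, edgeR adjusted p = 3.2e-06). Usp1, a deubiquitinase of PCNA, rose by 0.83.

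Of the G1/S cyclins and E2F genes, 6 of 17 rose and 0 fell (median 0.46). Rbl1, the retinoblastoma relative p107, rose by 1.02 ± 0.16 (SE, n = 7, edgeR adjusted p = 1.1e-04), Cdc25a, a phosphatase that activates CDK2, by 0.74, Cdk2 by 0.71 and Cdk4 by 0.46. Cyclin D1 (Ccnd1) rose by 0.27 but was not called without A20 cKO naive or A20 cKO day 2. Cyclin E genes were not called, with log2 ratios of 0.47 for Ccne1 and 0.72 for Ccne2 (edgeR adjusted p = 0.51 and 0.068).

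Among the 7 libraries, control day 2 had the lowest median in each of these 6 lists. There the median log2 ratio was 0.03 for origin licensing, 0.17 for fork enzymes, 0.04 for deoxynucleotide supply, 0.17 for chromatin assembly, -0.01 for checkpoint and repair and 0.05 for G1/S genes. With mitotic barcodes taken out of the other barcodes, the control day 2 medians were 0.64, 0.58, 0.58, 0.87, 0.78 and 0.50 in the same order, still the lowest of the 7 libraries in each list. Against all other barcodes, control day 1, with 0.301% mitotic barcodes, had medians of 0.84, 0.66, 0.80, 1.07, 1.32 and 0.62 in the same order. A20 cKO day 2, with 16.04%, had medians of 0.92, 0.93, 0.51, 0.87, 0.53 and 0.57. The part of mitotic barcodes in the control day 2 values was not tested. That comparator called 924 genes higher and 640 lower over the 7 libraries, among them 401 of the 403 and 236 of the 276.

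Genes of G2 and mitosis outside the rule changed direction with the comparator and after thinning. Against all other barcodes, 1 of 42 tested was higher and 18 were lower (median -0.79). By library, control day 1 went the other way with a median of 0.68, and the rest lay between -1.52 and -0.18. Without mitotic barcodes 20 of the list passed the filter on low counts, 16 of them higher and 0 lower (median 1.03). After thinning to 2000 UMIs, against all other barcodes, 24 passed the filter, 6 of them higher and 0 lower (median 0.52). These medians are over different sets of genes. Thinning also set membership anew, so mitotic barcodes could pass into the S-phase class, and depth was not the only change. Between barcodes of matched depth, with membership unchanged, Prc1 had a log2 ratio of -1.83 (edgeR adjusted p = 3.0e-05). Prc1, which bundles the central spindle, stood at 0 to 18.7 CPM in S-phase and 0.665 to 75.3 in other barcodes (log2 -1.98, edgeR adjusted p = 9.0e-09), and after thinning its log2 ratio was 0.17 (adjusted p = 0.89 by edgeR). Psrc1, Cenpa, Kif15, Sgol2a and Racgap1, also spindle, centromere or cytokinesis genes, were among the lowest genes. So were Cdca3, another gene of the G2/M list, and the histone gene Hist1h2ap. The call for Hist1h2ap was lost when any library but control day 1 was left out. Since the rule removed barcodes with 3 mitosis genes, their direction against all other barcodes is not independent of it.

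**Figure D4:**
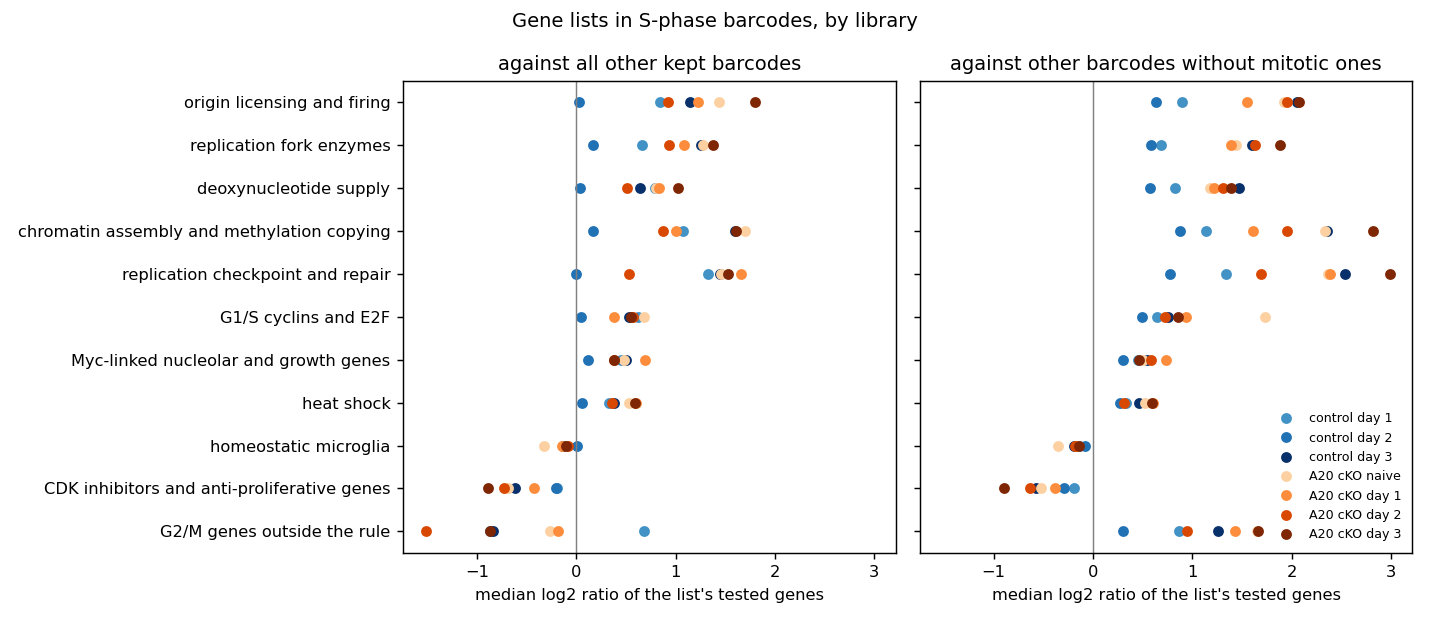
Median log2 ratio of each gene list in S-phase barcodes (x axis), 1 point per library, against all other kept barcodes (left) and against those without mitotic barcodes (right). The control day 2 points of the replication lists move from between -0.01 and 0.17 on the left to between 0.50 and 0.87 on the right. The G2/M points change side except that of control day 1, which lies right of 0 in both panels (0.68 and 0.86).

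Of 13 tested CDK inhibitors and anti-proliferative genes, 8 fell and 0 rose (median -0.60), beside 276 of 9822 genes called lower in all. Cyclin G2 (Ccng2), which is linked to cell cycle arrest, stood at 57.4, 74.9, 49.0, 85.2, 55.8, 43.1 and 51.9 CPM against 98.7, 88.3, 133, 181, 96.0, 84.2 and 116. The S-phase level was the lower one in every library (log2 -0.79 ± 0.11, edgeR adjusted p = 4.3e-05). Ccng1 fell by 0.68, Cdkn2d by 0.77 and the anti-proliferative genes Btg1 and Btg2 by 0.29 and 0.28. Cdkn1a, which encodes the CDK inhibitor p21, fell by 0.87 (edgeR adjusted p = 0.048), with 109 to 220 CPM in S-phase and 252 to 485 in other barcodes. Its call was lost without control day 1, control day 3, A20 cKO naive, A20 cKO day 1 or A20 cKO day 2 (adjusted p up to 0.12 by edgeR).

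Of 26 tested nucleolar and growth genes linked to Myc, 15 rose and 0 fell (median 0.34). Nop56, a core protein of the particles that modify ribosomal RNA, stood at 300, 212, 271, 247, 424, 320 and 280 CPM against 209, 191, 151, 148, 260, 182 and 154. Nop56 was higher in all 7 libraries (log2 0.61 ± 0.07, edgeR adjusted p = 1.6e-06), and Npm1 and Nolc1, also nucleolar proteins, rose by 0.43 and 0.61. Myc itself stood at 125, 57.7, 44.1, 83.0, 101, 83.1 and 89.9 CPM against 91.6, 41.3, 46.6, 53.3, 83.1, 36.5 and 32.0, higher in all but control day 3 (log2 0.53 ± 0.11, edgeR adjusted p = 0.0020). Mycl, a Myc relative, fell by 1.40.

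Of 9 tested heat shock and chaperone genes, 7 rose and 0 fell (median 0.37). Hsp90ab1 rose by 0.50 and Hspa8 by 0.37, each in all 7 libraries.

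Of 21 homeostatic genes, 6 fell and 0 rose (median -0.12), beside the 2.81% of all genes called lower. Against barcodes without mitotic ones 11 of the 21 fell, and at matched depth 2 did. Gpr34, a lysophosphatidylserine receptor, fell by 0.40 ± 0.06 (SE, n = 7, edgeR adjusted p = 1.0e-04), the purinergic receptor P2ry12 by 0.31, and Trem2, Tgfbr1, Mertk and Selplg by 0.26, 0.23, 0.22 and 0.16. Between barcodes of matched depth, P2ry12 had a log2 ratio of -0.16 (edgeR adjusted p = 0.11). The calls for Mertk and Selplg were lost without control day 1 or control day 3, and that for Mertk also without A20 cKO day 3. Tmem119 had a log2 ratio of -0.06 and was not called.

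Of 17 disease-associated genes 1 rose (Lpl, lipoprotein lipase, by 0.49) and 2 fell (Spp1 by 1.09 and Cd9 by 0.27), and 1 rose and 5 fell against barcodes without mitotic ones. Of 25 interferon-response genes 1 rose (Ifit2, by 0.37) and 0 fell, and 15 MHC class I and 4 class II genes had 0 calls with edgeR or DESeq2 (2 and 0 at an unadjusted p under 0.05 with edgeR). At matched depth 2 of the 15 MHC class I genes were lower. Of 17 immediate-early genes, Jund and Klf6 fell by 0.25 and 0.29. The calls for Lpl and Ifit2 were lost at matched depth, with log2 ratios of -0.03 and 0.02. Leaving out control day 1 also ended the call for Lpl, and A20 cKO naive, A20 cKO day 2 or control day 3 that for Ifit2.

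Of 22 NF-kB targets, 2 rose and 1 fell. Cxcl13, a B cell chemoattractant, was near 0 in S-phase and other barcodes of the control libraries, with at most 3.27 CPM. In A20 cKO naive, day 1, 2 and 3 it stood at 988, 555, 1222 and 1113 CPM in S-phase and 510, 280, 829 and 743 in other barcodes, higher in the S-phase barcodes each time (log2 0.77 ± 0.08, edgeR adjusted p = 7.8e-09). With membership and level taken from separate UMIs, the log2 ratio of Cxcl13 was 1.26 and was not called (edgeR adjusted p = 0.19). Tnf rose by 0.37, and its call was lost without A20 cKO naive or A20 cKO day 3. Il12b fell by 1.52, lower in 5 of 7 libraries, and was not called without A20 cKO day 2.

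Markers of other cell types were few. No gene of the neuron, border macrophage or red cell lists passed the filter on low counts, and the 1 monocyte, 4 neutrophil, 2 endothelial and 1 lymphocyte genes tested had 0 calls with edgeR or DESeq2, with 1 of these genes, the monocyte one, at an unadjusted p under 0.05 (edgeR). Against barcodes without mitotic ones, that monocyte gene was called higher (log2 0.78). Monocyte markers summed to 3.93 to 191 CPM in S-phase and 2.83 to 87.9 in other barcodes, and neutrophil markers to 0 to 58.5 and 0.145 to 54.7. The monocyte sum was higher in S-phase than in other barcodes of A20 cKO naive (log2 0.86, counting interval 0.26 to 1.37) and A20 cKO day 2 (1.13, 0.69 to 1.53), and in the other 5 libraries the interval included 0. Its part in the results was not tested. Of the oligodendrocyte genes, 1 of 5 fell (Mbp, log2 -0.41), and the astrocyte gene tested, Slc1a3, fell by 0.24. Both calls were lost without control day 3 or A20 cKO day 1, that of Mbp also without A20 cKO day 2, and that of Slc1a3 also without control day 1 or A20 cKO day 3. The choroid plexus gene Ttr had a log2 ratio of -4.59 (edgeR adjusted p at most 1.7e-15 with any library left out), and of -1.10 (adjusted p = 0.017) without recurring barcodes. Between 60.6% and 95.8% of all Ttr UMIs of control day 3 and the A20 cKO libraries sat on 1 barcode sequence that occurred in all 5 of them, and the other 3 libraries had 0 Ttr UMIs.

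Within control day 3 and the A20 cKO libraries, 513 genes were higher and 299 lower, of which 347 and 195 were among the calls over 7 libraries. Within control day 1 and day 2 alone, 40 were higher and 30 lower, 29 and 20 of them among those calls. Of the genes called over 7 libraries and tested there, 401 of 402 and 272 of 273 had the same sign in control day 1 and day 2. All these libraries were part of the fit that made the calls. Neither the overlaps nor the signs are therefore independent of it.

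The promoter letters occurred in 51 of the 327 genes called higher that had a RefSeq promoter (15.6%), and in 400 of the 7875 tested genes with one (5.08%). This was a count of letters and no test was made of it.

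S-phase barcodes of control day 2 and day 1 were compared for the genes that chose them as a description, since the rule holds the level of the 12 genes together. With 1 library per group these are ratios of summed UMIs, with exact intervals for counting error only. The 2 sets differed in mitosis genes below the threshold, with none detected in 16.3% of S-phase barcodes on day 2 and 85.9% on day 1. Summed, the 16 mitosis genes stood at 308 and 36.8 CPM (log2 3.05, 2.72 to 3.43, and 5.22 in other barcodes). The part of this difference in the ratios of other genes was not tested. Mcm5 stood at 74.0 CPM on day 2 and 78.1 on day 1 (log2 -0.08, 95% interval -0.41 to 0.25), and Mcm6 and Pcna had log2 ratios of -0.03 and -0.06. Mcm2, Mcm3, Mcm4, Mcm7 and Gins2 had log2 ratios of -0.30, -0.10, -0.19, 0.22 and 0.34, each with an interval that included 0. Dtl, a substrate receptor of a ubiquitin ligase, was higher by 0.87 (0.53 to 1.23), Tyms by 1.42 (1.11 to 1.74), Rrm2 by 3.36 (2.33 to 4.81) and Clspn by 2.21 (1.34 to 3.29). In other barcodes, which the rule chose for low counts of these genes outside mitosis, the ratios of Dtl, Tyms, Rrm2 and Clspn were 2.88, 2.64, 5.12 and 3.74.

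Among 7346 genes whose 2 sums held 50 UMIs or more, 151 were at least 2-fold higher (2.06%) and 154 at least 2-fold lower (2.1%) on day 2. Of these, 150 and 153 had the same sign in other barcodes, and 78 and 101 also differed by 2-fold or more there. Cyclin E genes were among the higher ones, Ccne1 by 2.14 (1.32 to 3.13) and Ccne2 by 2.26 (1.60 to 3.04), as was Dut by 1.54. The highest were Ccl5, a chemokine, by 4.88 (3.76 to 6.66), the kinetochore gene Spc24 by 3.33, Tk1 by 3.08, the interferon-inducible Ifi27l2a by 2.33 and Pkmyt1, a kinase that restrains CDK1, by 2.33. In other barcodes Ccl5 was higher by 1.49 and Tk1 by 4.78.

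The 5 lowest genes were heat shock and early response genes. Hspb1, a small heat shock protein, had 1 UMI on day 2 and 143 on day 1 (log2 -6.57, -12.47 to -4.65), and Hspa1a was at 5.42 and 264 CPM. Dusp1, a MAP kinase phosphatase, stood at 57.2 and 1912 CPM, and Atf3 and Fosb, both AP-1 family genes, had log2 ratios of -4.84 and -4.49. Their log2 ratios in other barcodes were between -6.21 and -4.41. Myc was at 57.7 and 125 CPM (log2 -1.11, and -1.15 in other barcodes). The summed Myc-linked growth genes stood at 4357 and 6136 CPM (log2 -0.49, and -0.18 in other barcodes).

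**Figure D5:**
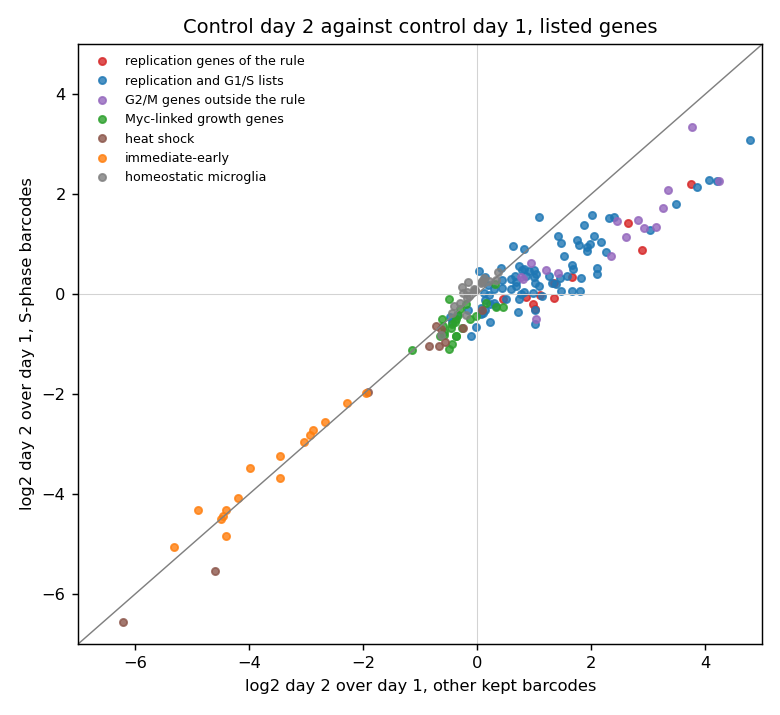
log2 ratio of control day 2 over control day 1 for listed genes with at least 50 UMIs in S-phase barcodes, in S-phase barcodes (y axis) against other kept barcodes (x axis); the line marks equal ratios. Mcm5, Mcm6 and Pcna, whose levels the rule sets in both classes, lie near 0 on the y axis and at 1.34, 1.10 and 0.86 on the x axis, and immediate-early genes such as Fosb (-4.49 and -4.50) lie near the line.

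S-phase barcodes of the A20 cKO libraries were set against those of A20 cKO naive, which all 3 comparisons share. On day 1, 133 of 3251 genes were at least 2-fold higher (4.09%) and 75 lower (2.31%). On day 2 these were 34 (1.18%) and 68 (2.35%) of 2890, and on day 3 they were 32 (1.17%) and 45 (1.64%) of 2742. The sign was the same in other barcodes for 126 and 55 of them on day 1, 34 and 62 on day 2, and 28 and 39 on day 3. The 12 replication genes together had log2 ratios of -0.02, 0.04 and 0.01 on days 1, 2 and 3 in S-phase barcodes, a quantity that the rule holds near one level.

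On A20 cKO day 1 the chemokine Ccl12 stood at 7248 CPM against 1537 (log2 2.24, 2.12 to 2.36, and 1.99 in other barcodes). The nucleolar gene Gnl3 was higher by 1.95 (0.86 in other barcodes), and the TAM receptor ligand Gas6 by 2.01, the complement receptor C5ar1 by 1.5 and Nme2 by 1.44. Summed Myc-linked growth genes were higher by 0.92 (0.83 to 1.00) and by 0.61 in other barcodes. Summed interferon-response genes had a log2 ratio of -0.71 (-0.79 to -0.64) in S-phase and 0.31 in other barcodes.

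Immediate-early genes were lower on A20 cKO day 1 and day 2 than in A20 cKO naive. Fos had 4 and 2 UMIs on these days and 196 in naive (log2 -5.20, -7.25 to -3.98, and -5.76, -9.14 to -4.21). The summed list had log2 ratios of -1.5 and -1.96 on these days and -0.22 on day 3. In other barcodes the summed list had -1.81, -1.96 and -0.29 on days 1, 2 and 3, and Fos -5.21 and -4.47 on days 1 and 2. Jun, Egr1, Rgs1 and Dusp1 were the other lowest genes on day 1, and Jun, Btg2, Dusp1 and Ier2 on day 2. On day 2 Ccl12 was higher by 1.43, and Sdc3, Fxyd5, Whsc1 and Chmp4b by 1.03 to 1.17.

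On A20 cKO day 3, Sdc3, a heparan sulfate proteoglycan, was higher by 1.17 and Tnf by 1.09 (0.51 to 1.68), with Wdr89, Pilra and Nap1l1 between 0.93 and 1.07. In other barcodes the log2 ratios of these genes lay between 0.35 and 1.18. The chemokine Ccl7 stood at 65.7 CPM against 177 in naive (log2 -1.40, -2.23 to -0.70), while in other barcodes its log2 ratio was 1.63. Fcrls, Tagap, Mlph and Crybb1 had log2 ratios between -1.39 and -1.31.

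Replication genes of A20 cKO day 3 and control day 3 S-phase barcodes are compared as a description, since the rule chose both sets by such genes. The 12 replication genes together had a log2 ratio of -0.03 (-0.22 to 0.15). Summed replication lists had log2 ratios between -0.17 for deoxynucleotide supply and 0.09 for fork enzymes, and each of their intervals included 0. Of 3296 genes, 82 were at least 2-fold higher (2.49%) and 102 lower (3.09%) in A20 cKO, and 78 and 100 of them had the same sign in other barcodes. Cxcl13 had 322 UMIs in A20 cKO and 2 in control (log2 8.09, 6.55 to 11.46), and Ccl5 stood at 2476 and 9.80 CPM (7.87, 6.85 to 9.43).

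The MHC class I gene H2-Q7 was higher by 4.57, Ccl3 by 3.90 and Apoe, an apolipoprotein, by 3.12. Summed MHC class I genes had a log2 ratio of 1.62 in S-phase and 1.74 in other barcodes. Fcrls stood at 114 against 1163 CPM (log2 -3.33, -3.90 to -2.85), and Ltc4s, Slc2a5, Lrp1 and Ecscr had ratios between -2.14 and -2.05. These ratios in other barcodes lay near those in S-phase barcodes for Cxcl13 (7.99) and Fcrls (-3.24), and at -1.05 for Lrp1.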

How the data were processed

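Each library had 1 sparse matrix of UMI counts, deposited by the authors as whole numbers and not normalized. Per the labels and methods, libraries were 10x Genomics 3′, and the submitters' processing notes name Cell Ranger 2.1.1 and mm10. The deposited barcode and gene lists (unit other) name the columns and rows. Depth is the UMI total given in the report. Doublets were excluded by the authors at sorting; no caller was run here. Of 27998 gene identifiers, 27645 (98.7%) matched GENCODE M21 (GRCm38).

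The members and gene lists were chosen with earlier results of these data known. S-phase and other barcodes were summed per library and compared with edgeR 4.0.16 in R 4.3.3 (quasi-likelihood, TMM, filterByExpr, library block), tested on simulated data. DESeq2 1.42.0, other normalization, filters, thinning, comparators and leave-one-out were the alternatives. Between libraries, ratios of CPM with 0.5 UMI added carry exact conditional 95% intervals, without a test. Counting used Python 3.11.15. The text names listed genes, the 15 highest and 10 lowest called genes with 1 direction in every library and at least 100 UMIs, and the 5 highest and 5 lowest per pair of libraries. Mitochondrial, ribosomal-protein, sex-linked marker and predicted genes were left out of these rankings. Some genes that these rules name are not reported here.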

Additional observations from a re-analysis of the deposited data

Results flagged for a closer look

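The difference between S-phase and other barcodes differed between genotypes for 1 of 9822 genes (0.0102%) in an edgeR interaction test, the linker histone gene H1f0, with a log2 difference of -1.33 ± 0.25 (SE, A20 cKO minus control, adjusted p = 0.026 by edgeR). In control day 1, 2 and 3, H1f0 stood at 131, 49.8 and 85.0 CPM in S-phase barcodes and at 122, 53.5 and 103 in other barcodes. In A20 cKO naive, day 1, 2 and 3 it stood at 25.5, 25.4, 15.4 and 27.7 against 58.0, 44.0, 65.0 and 91.9. DESeq2 called 0 genes (172 at an unadjusted p under 0.05; 505 with edgeR), and leaving out 1 library gave between 0 calls (without control day 1 or A20 cKO day 3) and 5 (without control day 3). The libraries of a genotype are of different days, so the test sets the spread over days against the genotype. Of the control libraries, only day 3 shared the raised barcode recurrence with the A20 cKO libraries. Genotype and set therefore cannot be fully told apart.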

How the results depend on the processing

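Shares of S-phase barcodes were smaller at 2000 UMIs per barcode, with both thresholds of the rule applied to the thinned UMIs. A second random draw, chosen after seeing the data, gave 0.398% in control naive and 2.67%, 7.41% and 3.67% in control day 1, 2 and 3. That draw gave 1.80%, 4.82%, 4.63% and 3.16% in A20 cKO naive, day 1, 2 and 3. The first draw gave 0% in control naive and the values of the report elsewhere (2.14%, 6.64%, 3.19%, 1.61%, 4.70%, 4.63% and 3.72%). With 4 or more replication genes the shares were 0% in control naive, 4.45%, 5.66% and 3.83% in control day 1, 2 and 3, and 1.98%, 5.30%, 6.30% and 5.02% in A20 cKO. Control day 3 had 5.14% without barcodes over 2 times the median UMIs. A20 cKO day 3 minus control day 3 was 0.523 and -0.514 points in the 2 draws and 1.19 with 4 genes. Control day 2 minus day 1, a pair added after seeing the data, was 4.50, 4.75, 1.21 (4 genes) and 2.04 (without barcodes over 2 times the median).

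Genes higher and lower in S-phase barcodes numbered 924 and 640 without mitotic barcodes, 181 and 98 at matched depth, 199 and 130 after thinning, 40 and 30 in control day 1 and day 2 alone. Lower genes numbered 648 without a filter on low counts and 149 with DESeq2. Leaving out 1 library gave 240 (without control day 3) to 621 (without control day 2) higher and 148 to 451 lower, for the same libraries; 262 and 264 were higher without control day 1 or A20 cKO day 1. Of 131 called listed or named genes, 84 kept their call whichever library was left out. The G2/M median was 1.03 without mitotic barcodes and 0.52 after thinning. Of the lists with calls in the report, medians of the NF-kB, interferon and oligodendrocyte lists also changed sign under some alternatives, and these 3 lists had at most 3 calls each.

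Thinning left fewer genes with 50 UMIs, and then 60 and 75 were 2-fold higher and lower on control day 2 than day 1, 13 and 16 on A20 cKO day 1, 9 and 14 on day 2, 9 and 7 on day 3 and 24 and 21 between genotypes. With 4 replication genes, 86, 66 and 20 were higher for control day 2, A20 cKO day 1 and A20 cKO day 3. The genotype interaction gave 0 calls with DESeq2 and 0 to 5 with a library left out. The cause of these changes was not tested. No paired analysis was possible because each group had 1 library; the library was already the block of the class comparison.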
